A study of Mus musculus with 31 samples.

Results

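The genes of glycolysis and glucose transport were followed in mouse thymus and in thymic tumors. The list held 34 genes, chosen by function: glucose transporters, the enzymes from hexokinase to lactate dehydrogenase, lactate transporters, pyruvate dehydrogenase kinases and branch enzymes. The list was drawn up with earlier results of these data known. Each gene was read by 1 probe set, the one of highest mean over the 31 arrays. Of the 34 genes, 31 had a probe set naming that gene alone, among 18193 genes on that basis, and all 31 passed the filter on low signal that left 13644 genes. Gpi1, Eno1 and G6pdx were not analysed here.

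Glycolysis takes glucose that enters through GLUT transporters, traps it by phosphorylation with a hexokinase, commits it at phosphofructokinase, splits it with aldolase and carries the trioses to pyruvate. Pyruvate then enters mitochondria through pyruvate dehydrogenase, which the PDK kinases switch off, or is turned to lactate and exported by MCT transporters. Dividing thymocytes and lymphoid tumors are known for heavy use of the lactate route even with oxygen present. Many of these genes are textbook targets of the transcription factors HIF1 and MYC.

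The samples were C57BL/6 thymi and thymic tumors from mice of NDR1 genotype +/+ (wild type, WT), +/- (HT) or -/- (KO), with RNA hybridised to an Affymetrix mouse genome array that reads transcripts at their 3′ ends. NDR1 is a kinase encoded by Stk38. Each genotype had 4 thymi of untreated, tumor-free mice, 2 female and 2 male. Sample titles call these thymocytes, and the tumor samples tumor cells. The 19 tumors came from mice given the alkylating mutagen ENU (N-ethyl-N-nitrosourea, 100 mg/kg) and were taken when a tumor appeared or at 9 months: 5 WT (all female), 7 HT (1 male) and 7 KO (1 male). No untreated tumor or ENU-treated normal thymus was among the samples, so tumor state, ENU and age cannot be told apart. WT, HT and KO are used as the labels give them. The Stk38 signal lay between 11.69 and 12.03 on the log2 scale in WT thymi and between 10.64 and 11.34 in KO thymi. In tumors labelled KO it ran from 8.73 to 13.08, across the 11.38 to 13.04 of WT tumors, so it did not separate the labelled tumor genotypes. Whether that probe set lies in the mutated part of the gene is not stated in the labels.

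Levels are log2(intensity + 1) and can be compared between samples for 1 gene, not between genes. Tumors were less uniform than thymi in RNA integrity and in most of the cell type measures. Thymic epithelium genes went the other way, with an SD of 1.19 over thymi and 0.422 over tumors, and so did erythroid genes (0.597 and 0.324). The thymic epithelium mean also split thymi by sex, at 6.74 to 8.26 in females and 4.99 to 5.52 in males. The mean of 6 genes of CD4 CD8 double-positive thymocytes (such as Cd8a and Rag1) lay at 13.39 to 13.62 in thymi and 7.51 to 12.03 in tumors. A mean of B cell and plasma cell genes lay at 5.55 to 6.87 in thymi and 4.48 to 12.47 in tumors, and was highest in KO tumors 06 and 04 and HT tumors 01 and 03. Fibroblast genes averaged 3.66 to 5.41 in thymi and 4.24 to 8.38 in tumors, and macrophage genes 5.88 to 8.14 and 6.68 to 9.93. The log2 ratio of the 3′ to the 5′ actin control probe set, which rises as RNA degrades, was 0.549 to 0.967 in thymi and 0.531 to 5.68 in tumors, with HT tumor 07 at the top. These measures moved together with tumor against thymus. Slopes of the members on the B cell, macrophage and mitosis means and on the actin ratio, and fits with that ratio or without the 4 tumors rich in B cell genes, are given with the single tumors. The part of the double-positive, fibroblast, thymic epithelium and erythroid genes in the results was not tested. In such bulk RNA, fewer cells of a type and less RNA per cell cannot be told apart.

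Members at several steps of the pathway had a higher signal in tumors than in thymi. The glucose transporters Slc2a1 and Slc2a3, hexokinase Hk2, the phosphofructokinase Pfkl, the aldolases Aldoa and Aldoc, triose phosphate isomerase Tpi1, pyruvate kinase Pkm and the lactate exporter Slc16a3 rose, by 1.78-fold (Tpi1) to 4.95-fold (Hk2). Pdk2, an inhibitor of pyruvate dehydrogenase, fell. In all, 10 of 31 members passed an adjusted p of 0.05 in limma (9 higher, 1 lower), or 32.3%, against 24.7% of all 13644 genes. The members' share of higher calls, 9 of 31, stood beside 11.9% of all genes, and of lower calls, 1 of 31, beside 12.8%. The median difference over the members was +0.31, against +0.05 over all genes, and 22 of 31 were positive. Because the list was drawn up with earlier results known, these shares and this median describe it and are not independent support.

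**Figure D1:**
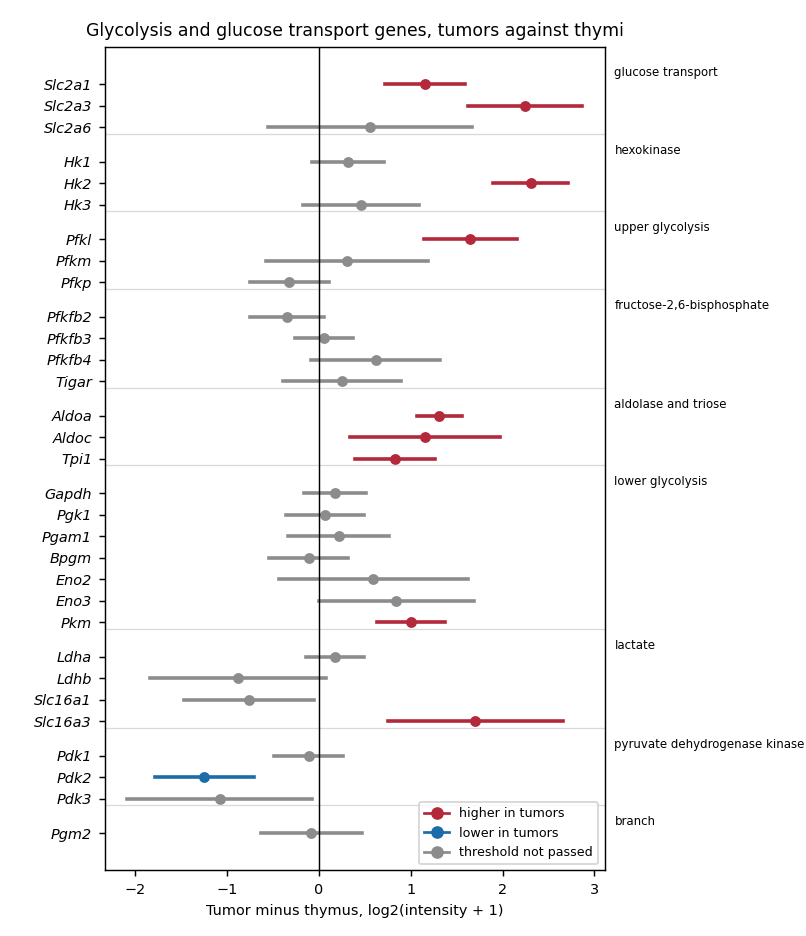
Difference between tumors and thymi for the 31 members, on the log2(intensity + 1) scale (horizontal axis), grouped by role (vertical axis). Points are the limma estimates averaged over the 3 genotypes with sex as a covariate, bars are 95% confidence intervals, and color marks the 9 members higher, the 1 lower and the 21 that did not pass the threshold; Hk2 at +2.31 lies farthest from 0.

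Glucose transport was read through 3 members. Slc2a3, which encodes the high-affinity transporter GLUT3, lay between 9.40 and 9.82 in the 12 thymi (median 9.61). The 5 WT tumors had 12.10, 10.90, 12.96, 12.31 and 12.18, the HT tumors ran from 9.94 over a median of 11.42 to 13.24, and the KO tumors from 11.11 over 11.33 to 13.07. Every tumor was above every thymus, and the lowest tumor, HT 05, was only just so. The difference was +2.24 (SE 0.302, limma adjusted p = 5.2e-06). A second probe set also passed (+2.43), and 2 dim ones did not (+1.24 and +0.95, adjusted p = 0.276 and 0.266).

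Slc2a1, which encodes the widely expressed basal transporter GLUT1, also rose. Thymi lay between 9.71 and 10.18 (median 9.85) and tumors between 10.13 and 12.24 (median 10.94). The groups touched only at 1 tumor, HT 06, since 18 of 19 tumors exceeded the highest thymus. The difference was +1.15 (SE 0.213, adjusted p = 0.000286). All 3 Slc2a1 probe sets passed, between +0.79 and +1.15. Within each array the log2 difference of Slc2a1 and Slc2a3 moved by -0.94 from thymi to tumors (permutation p = 0.0102, adjusted over 8 isozyme pairs 0.0136), with 13 of 19 tumors below the lowest thymus. Unlike the limma fits, the permutation tests of isozyme pairs did not adjust for sex.

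Slc2a6, which encodes the transporter GLUT6, stood near its thymus level in most tumors and far above it in a few. Its median was 3.97 in thymi and 3.95 in tumors, but tumors reached 8.64. The 6 tumors above the highest thymus (4.16) included KO 06 at 8.64, HT 03 at 8.08, KO 03 at 7.37, HT 01 at 6.80, KO 04 at 6.58 and HT 07 at 5.81. No WT tumor was among them, yet the difference of KO from WT tumors, +1.70 (95% confidence interval -0.29 to 3.68, limma adjusted p = 0.871), did not pass. KO 06, HT 03, HT 01 and KO 04 were also the 4 tumors of highest B cell gene mean, none of them WT. The limma difference between tumors and thymi, averaged over the genotypes with sex as a covariate, was +0.56 (SE 0.541, adjusted p = 0.469).

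Phosphorylation of glucose gave the clearest separation. Hk2 encodes the inducible hexokinase that docks on mitochondria. The WT thymi had 6.74, 6.65, 6.77 and 6.44, the HT thymi 6.76, 6.71, 6.52 and 6.08, and the KO thymi 6.71, 6.55, 6.37 and 6.08. The WT tumors had 9.43, 8.77, 9.09, 9.42 and 8.90, the HT tumors ran from 8.10 over a median of 8.39 to 8.85, and the KO tumors from 7.85 over 9.37 to 9.9955. The lowest tumor, KO 04, stood more than 1 log2 unit above the highest thymus, with no overlap. The mean was 6.53 ± 0.248 (SD, n = 12) in thymi and 8.84 ± 0.614 (SD, n = 19) in tumors, a difference of +2.31 (SE 0.197, limma adjusted p = 2.82e-09), or 4.95-fold.

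Hk1, the constitutive hexokinase, had thymi between 10.16 and 10.69 and tumors between 9.72 and 11.91, and its +0.32 did not pass (adjusted p = 0.222). Its second probe set gave -0.84, so its direction differed between probe sets. Within arrays Hk2 gained +1.90 on Hk1 (permutation p = 1e-05, the smallest they can give; adjusted p = 4e-05), and 18 of 19 tumors exceeded every thymus in this difference. Hk3, a hexokinase of myeloid cells, gave +0.46 and did not pass, and its within-array difference from Hk1 moved by +0.20 (permutation p = 0.481, adjusted p = 0.55).

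**Figure D2:**
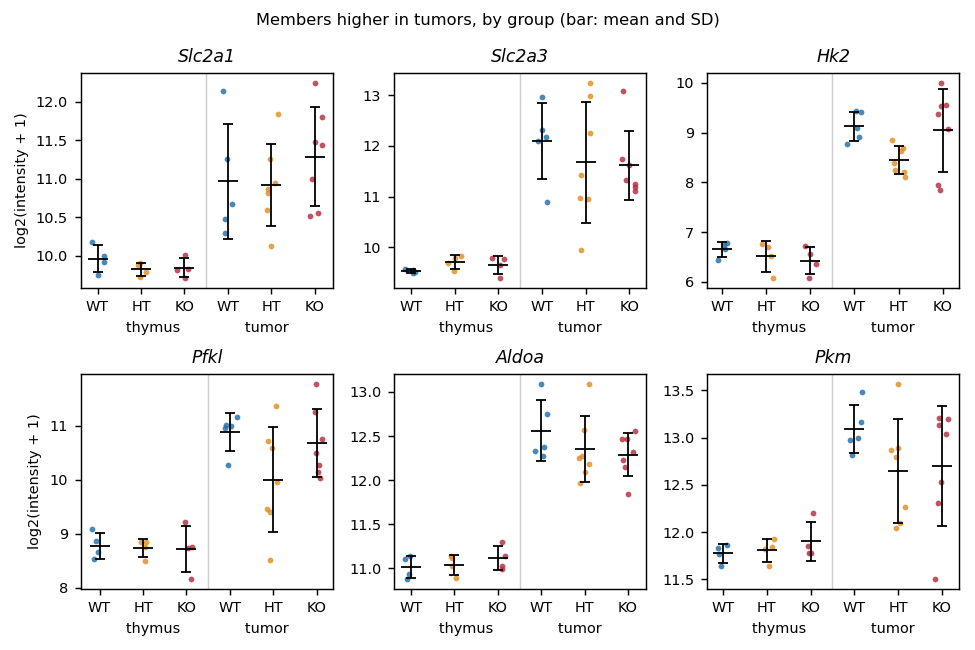
Signal of 6 members that rose in tumors, log2(intensity + 1) on the vertical axis, by genotype in thymi and tumors on the horizontal axis. Each point is 1 array and the bars give mean and SD. The tumor points of Slc2a3, Hk2 and Aldoa lie above all thymus points, whereas Slc2a1 and Pfkl overlap at 1 tumor. For Pkm 16 of 19 tumors lie above every thymus and 1, KO 06, lies below every thymus.

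Phosphofructokinase, the committed step, is made of liver (Pfkl), muscle (Pfkm) and platelet (Pfkp) type subunits. Pfkl lay between 8.17 and 9.22 in thymi (median 8.76). The WT tumors had 10.27, 10.99, 10.97, 11.17 and 11.02, the HT tumors ran from 8.52 over 9.96 to 11.37, and the KO tumors from 10.04 over 10.50 to 11.78. HT tumor 03, at 8.52, was the only tumor within the thymus range. Pfkl rose by +1.65 (SE 0.247, limma adjusted p = 2.13e-05). A second probe set passed with +1.60, and the dimmest gave +0.55 (adjusted p = 0.103). The other subunits did not pass, Pfkm with +0.31 (adjusted p = 0.631) and Pfkp with -0.33 (adjusted p = 0.263). The subunits changed unequally within arrays: Pfkp lost 1.97 on Pfkl (change -1.97, permutation p = 1e-05, the smallest they can give; adjusted p = 4e-05) and Pfkm changed against Pfkl by -1.68 (adjusted p = 5.33e-05). For Pfkp the call depended on the probe set, since a dimmer one fell by 1.66 (limma adjusted p = 0.00588).

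Fructose-2,6-bisphosphate, the strongest activator of phosphofructokinase, is made and broken down by the PFKFB enzymes and removed by the phosphatase TIGAR. None of the 4 genes passed: Pfkfb2 gave -0.35, Pfkfb3 +0.05, Pfkfb4 +0.62 (adjusted p = 0.186) and Tigar +0.25 (adjusted p = 0.582). Their tumors spread to both sides of the thymi. Pfkfb4 ran from 5.15 to 5.81 in thymi and from 4.94 to 8.27 in tumors, with 12 of 19 above the highest thymus. Tigar ran from 4.15 to 4.75 in thymi and from 3.62 to 6.90 in tumors, with 6 above and 5 below the thymus range. Its other, dimmer probe sets gave -0.18 and +0.07 and did not pass (limma adjusted p = 0.4 and 0.804 over all probe sets).

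Aldolase splits fructose-1,6-bisphosphate into trioses. Aldoa, the ubiquitous form, lay between 10.88 and 11.29 in thymi (median 11.06). The WT tumors had 12.27, 12.75, 12.37, 13.09 and 12.33, the HT tumors ran from 11.97 over 12.25 to 13.09, and the KO tumors from 11.85 over 12.32 to 12.56. No tumor overlapped the thymi. Aldoa was also the most even of the members that rose, with a tumor SD of 0.327 (n = 19) around a difference of +1.31 (SE 0.120, limma adjusted p = 1.03e-08). All 5 of its probe sets passed, from +1.18 to +1.60.

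Aldoc, the aldolase of brain, was dim. Thymi ran from 3.57 to 4.41 and tumors from 4.03 to 7.98, 15 of 19 above the highest thymus, for +1.16 (SE 0.396, limma adjusted p = 0.0334). The highest tumor was HT 07, the array of the highest actin ratio. With that ratio as a covariate Aldoc gave +0.62 and no longer passed (adjusted p = 0.243), and with a pseudocount of 16 it gave +0.78 (adjusted p = 0.0628). Its call was also lost on leaving out any of 8 single arrays, the 6 female thymi, WT tumor 04 or KO tumor 02, with adjusted p up to 0.0737. Within arrays Aldoc moved by -0.02 against Aldoa (permutation p = 0.956, adjusted p = 0.956).

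Tpi1, which interconverts the trioses, ran from 10.90 to 11.66 in thymi and from 10.75 to 13.20 in tumors, 14 of 19 above the highest thymus. It rose by +0.83 (SE 0.213, limma adjusted p = 0.00557), and gave +0.68 (adjusted p = 0.0511) without the 2 male tumors. Of its other probe sets 1 passed (+1.25) and 1 did not (+0.64, adjusted p = 0.0766).

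The middle of the lower pathway did not pass. Gapdh, which oxidises the triose, gave +0.18 (95% confidence interval -0.16 to 0.51, limma adjusted p = 0.449). It was read by an array control probe set at the 3′ end of the transcript, and the control probe sets of its middle and 5′ end gave -0.20 and -0.57. Pgk1, which makes the first ATP, gave +0.07, but its other 2 probe sets gave +0.60 and +0.55 and passed (adjusted p = 0.000711 and 0.00103 over all probe sets). The result for Pgk1 is thus not settled between probe sets. Pgam1 (phosphoglycerate mutase) gave +0.21, Bpgm (the red cell bisphosphoglycerate mutase) -0.11, and the enolases Eno2 and Eno3 of nerve and muscle +0.59 and +0.84. The other Bpgm probe sets gave -0.78 and -1.56 and did not pass (limma adjusted p = 0.23 and 0.0577 over all probe sets). Eno2, Eno3, Bpgm and Hk3 all had their highest tumor value in HT tumor 07.

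Pkm encodes the pyruvate kinase of most tissues and ends the pathway. Thymi ran from 11.64 to 12.20 (median 11.82). The WT tumors had 13.17, 12.98, 13.48, 12.9985 and 12.81, the HT tumors ran from 12.05 over 12.79 to 13.57, and the KO tumors from 11.51 over 13.03 to 13.20. Each WT tumor lay above every thymus, and KO tumor 06, at 11.51, lay below them all. Pkm rose by +1.001 (SE 0.182, limma adjusted p = 0.000233).

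At the lactate end the members went different ways. Ldha, whose subunit favors lactate production, ran from 12.67 to 12.93 in thymi (median 12.81) and from 12.02 to 13.61 in tumors (median 13.08). Its difference was +0.17 (95% confidence interval -0.15 to 0.49, limma adjusted p = 0.436), and 11 tumors lay above and 7 below the thymus range. Ldhb, whose subunit favors the return to pyruvate, ran from 13.07 to 13.40 in thymi and from 8.83 to 13.54 in tumors. Its -0.88 did not pass (SE 0.468, adjusted p = 0.17), although 15 of 19 tumors lay below every thymus. The drop was concentrated in single tumors: KO 04 had 8.83, KO 06 9.03, HT 01 9.88 and HT 03 10.67. Its other probe sets fell further, at -1.28, -1.35 and -1.62, and did not pass (limma adjusted p = 0.131, 0.0719 and 0.0582 over all probe sets). Within arrays Ldha gained +1.24 on Ldhb (permutation p = 0.00249, adjusted p = 0.00398), with 14 of 19 tumors above the highest thymus.

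Slc16a3 encodes MCT4, the lactate exporter of highly glycolytic cells. Thymi ran from 3.58 to 4.13 (median 3.87). The WT tumors had 5.03, 6.03, 4.17, 7.44 and 7.65, the HT tumors ran from 4.30 over 4.83 to 6.77, and the KO tumors from 3.86 over 5.28 to 9.14. All tumors but KO 01 were above every thymus, yet they covered more than 5 log2 units. Slc16a3 rose by +1.70 (SE 0.463, limma adjusted p = 0.0084), and gave +1.25 (adjusted p = 0.0608) with the actin ratio as a covariate. It was dim in thymi, near the filter on low signal (3.65). With a pseudocount of 16 it gave +1.18 (limma adjusted p = 0.0243), so the size of its log2 change depends on the pseudocount. Slc16a1, which encodes MCT1, gave -0.76 (adjusted p = 0.107), with 12 of 19 tumors below every thymus. In all 19 tumors the within-array difference of Slc16a3 and Slc16a1 exceeded that of every thymus, a change of +2.59 (permutation p = 3e-05, adjusted p = 6e-05).

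**Figure D3:**
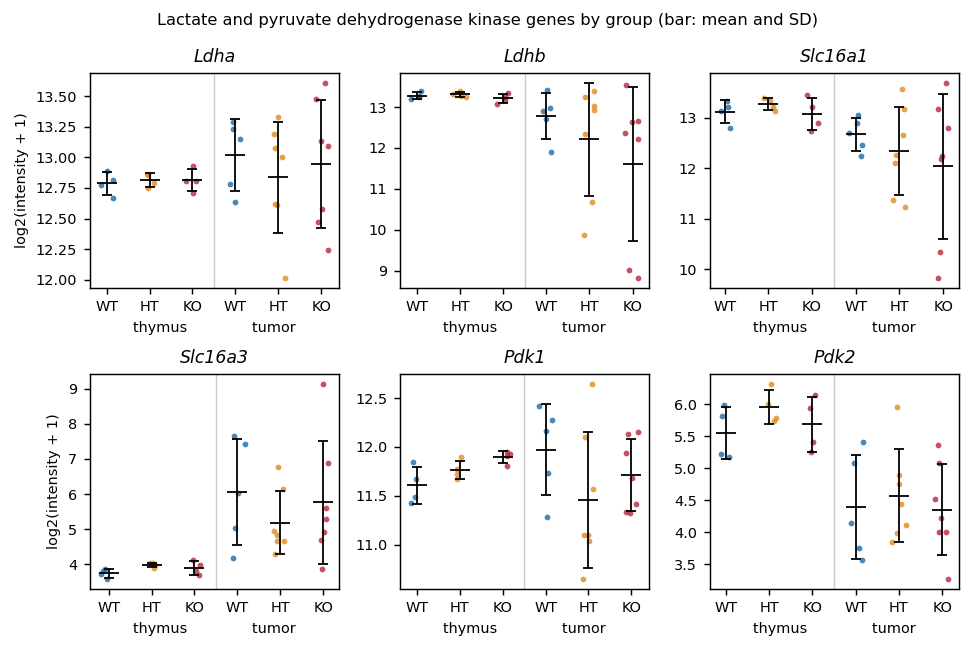
Signal of the lactate dehydrogenase, lactate transporter and pyruvate dehydrogenase kinase genes, log2(intensity + 1) on the vertical axis, by genotype in thymi and tumors on the horizontal axis. Points are arrays and bars mean and SD; Slc16a3 lies higher and Pdk2 lower in tumors, Ldha stays within 12.02 to 13.61, and Ldhb falls below 11 in 4 tumors.

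Of the kinases that inhibit pyruvate dehydrogenase, Pdk2 fell. Thymi ran from 5.18 to 6.32 (median 5.80). The WT tumors had 3.57, 4.14, 5.42, 3.75 and 5.09, the HT tumors ran from 3.85 over 4.43 to 5.96, and the KO tumors from 3.27 over 4.23 to 5.37. In 16 of 19 tumors Pdk2 lay below every thymus. The difference was -1.25 (SE 0.262, limma adjusted p = 0.001). The lowest tumors lay under the filter on low signal (3.65). With a pseudocount of 16 Pdk2 gave -0.83 (limma adjusted p = 0.000752), so the size of its log2 change depends on the pseudocount. Pdk3 gave -1.08 (adjusted p = 0.107), with a range of 3.80 to 9.53 in tumors against 8.94 to 9.33 in thymi. Pdk1, a well-known HIF1 target, gave -0.11 (adjusted p = 0.679). Its other 3 probe sets gave -0.43, -0.96 and -0.73, of which the second fell past the threshold (adjusted p = 1.68e-05). Pgm2, a sugar phosphate mutase of the branch pathways, gave -0.08.

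Beyond these differences of mean, the tumors spread more. The SD over tumors exceeded that over thymi for 31 of 31 members, with a median of 0.765 against 0.170, and the medians over all genes were 0.645 and 0.193. Every tumor lay above every thymus for 3 members (Hk2, Slc2a3 and Aldoa), beside 0.894% of all genes. For 0 members did every tumor lie below every thymus, beside 1.87% of all genes.

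Within genotypes fewer arrays were compared. WT tumors had 5 members higher and 0 lower than WT thymi (background 6.87% called, 3.03% higher and 3.83% lower): Slc2a3 +2.65, Hk2 +2.43, Pfkl +1.94, Aldoa +1.51 and Pkm +1.33. HT tumors had 3 higher and 0 lower (background 3.53%, 1.19% higher and 2.35% lower): Slc2a3 +2.04, Hk2 +1.90 and Aldoa +1.28. KO tumors had 5 higher and 0 lower (background 4.94%, 2.2% higher and 2.74% lower): Hk2 +2.59, Slc2a3 +2.04, Pfkl +1.85, Slc2a1 +1.42 and Aldoa +1.15. At an unadjusted p under 0.05 in limma, 10, 8 and 9 of 31 members differed in WT, HT and KO, in either direction, beside 22.1%, 15.3% and 19.8% of all genes. The lists differ between genotypes, but the tests of that difference passed for 0 of 31 members and 0% of 13644 genes, both between HT and WT and between KO and WT. The smallest unadjusted p was 0.117 (Pdk1) and 0.136 (Tigar), and 0 members were under 0.05. For Hk2 the tumor difference was 0.16 larger in KO than in WT (95% confidence interval -0.74 to 1.06), and for Slc2a3 it changed by -0.62 (-1.99 to 0.76), so sizable differences between genotypes remain within the intervals.

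Genotypes were then compared directly, to ask whether loss of NDR1 goes with other levels of these genes. In thymi 0 of 31 members passed in limma for KO versus WT (background 0.191%), HT versus WT (0.022%) or KO versus HT (0.0586%). At an unadjusted p under 0.05 there were 1, 2 and 1 members, beside 5.05%, 6.8% and 8.49% of all genes. The smallest unadjusted p were 0.0121 for Pdk1 in KO versus WT (+0.29), 0.0155 for Slc16a3 between HT and WT (+0.24) and 0.0217 for Hk3 between KO and HT (+0.24). The largest difference in any of them was +0.41, for Pdk2 in HT versus WT. Hk2 in KO versus WT thymi gave -0.22 (95% confidence interval -0.50 to 0.05).

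In tumors 0 of 31 members passed in each comparison, as did 0% of all genes. At an unadjusted p under 0.05 there was 1 member (Tigar) for KO versus WT, 1 (Hk2) for HT versus WT and 0 for KO versus HT, beside 3.39%, 2.8% and 1.1% of all genes. Tigar gave +1.24 in KO versus WT (limma adjusted p = 0.871). Its signal was high in the tumors of highest B cell gene mean, none of them WT, as given below. Hk2 gave -0.73 in HT versus WT (95% confidence interval -1.43 to -0.03, limma adjusted p = 0.932) and +0.60 between KO and HT (interval -0.02 to 1.23). With tumors this variable, differences of more than 1 log2 unit in KO versus WT were not detectable for members such as Slc16a3 (-0.24, interval -1.98 to 1.497).

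Single tumors differed in a pattern shared by several members. In the 4 tumors of highest B cell gene mean (KO 06, KO 04, HT 01 and HT 03, at 10.52 to 12.47) the mean of 10 mitosis genes was also lowest, at 8.13 to 9.72. Tigar was 6.90, 6.57, 6.49 and 6.03 in them, in that order, against a thymus maximum of 4.75. These values and the Tigar slopes below rest on its brightest probe set, and its dimmer ones were not read in single tumors. Over the 19 tumors, with genotype and sex in the limma fit, 12 of 31 members followed the B cell mean (5 positive, 7 negative), or 38.7%, beside 19.6% of all genes (10.9% positive, 8.78% negative). Positive slopes were those of Slc2a6 (+0.59 per log2 unit, adjusted p = 0.000126), Tigar (+0.35, adjusted p = 5.42e-05), Pfkp, Pfkfb4 and Aldoc. Negative slopes were those of Ldhb (-0.48), Pfkm, Slc16a1, Pkm, Tpi1, Gapdh and Ldha. With the mitosis mean 11 members moved (9 positive, 2 negative), or 35.5%, beside 21.4% of all genes (10.9% positive, 10.5% negative). Hk2, Pfkm (+1.04), Tpi1, Gapdh, Pkm, Ldha, Ldhb (+1.09), Slc16a1 and Pgm2 rose with it, and Slc2a6 (-1.25) and Tigar (-0.84) fell. Without those 4 tumors 0 of 31 members passed for either mean in limma, and the share of all genes was 2.64% for the B cell mean and 0.0733% for the mitosis mean. The slope of Ldhb on the B cell mean was then -0.05 (adjusted p = 0.77), whereas that of Slc2a6 was +0.55 (adjusted p = 0.0538).

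**Figure D4:**
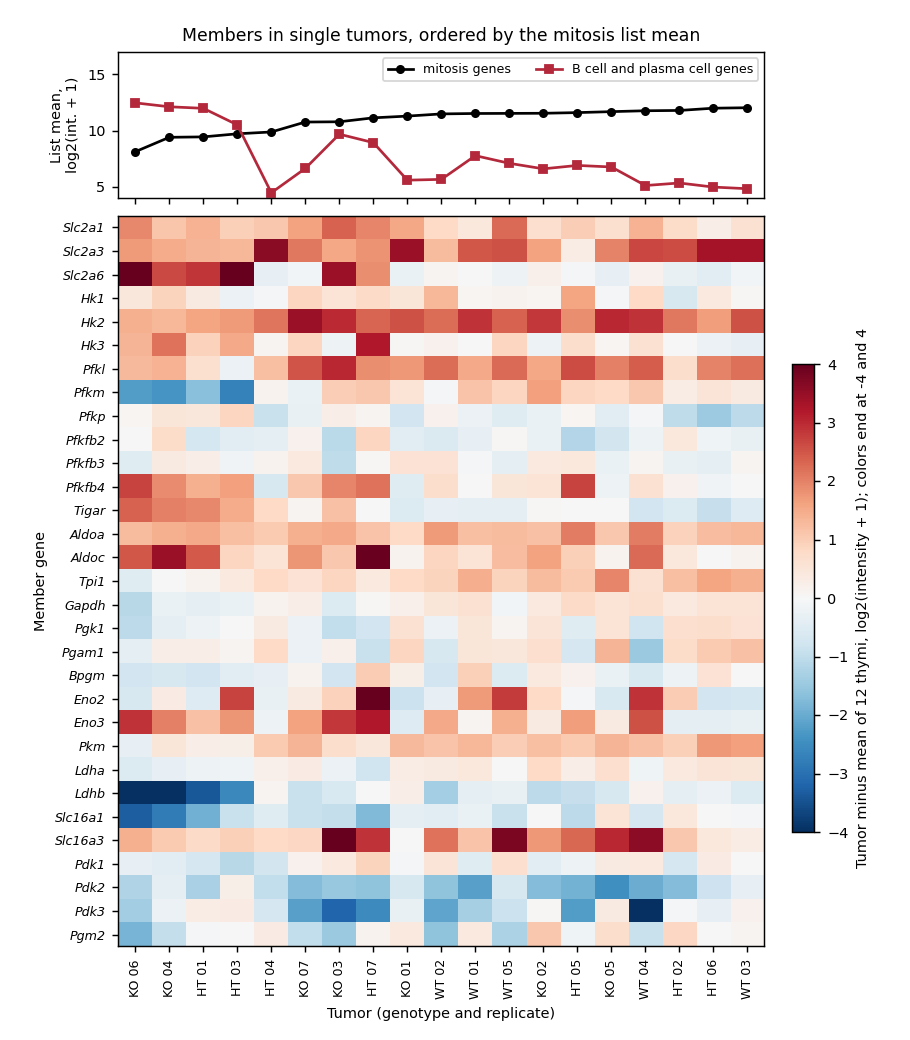
Each member (rows) in each tumor (columns), as the difference from the mean of the 12 thymi on the log2(intensity + 1) scale, with colors ending at -4 and 4; the upper panel gives the mean of mitosis genes, which orders the tumors, and of B cell and plasma cell genes. The 4 tumors at the left share high Slc2a6 and Tigar and low Ldhb and Pfkm, while Hk2 and Aldoa are positive in all 19 columns.

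The macrophage gene mean was followed by 0 of 31 members in limma (0.0293% of all genes). The actin ratio was followed by 8 (25.8%), beside 26% of all genes (15.9% positive, 10% negative): Slc2a1, Hk3, Aldoc, Eno2 and Eno3 upward and Pgk1, Pgam1 and Pdk3 downward. With this ratio as a covariate Hk2 (+2.21), Slc2a3 (+2.44), Pfkl (+1.43), Aldoa (+1.25), Pkm (+1.12), Tpi1 (+1.01), Slc2a1 (+0.86) and Pdk2 (-1.11) still passed in tumors against thymi, and Pgam1 (+0.65, adjusted p = 0.0248) came in. Without the 4 tumors rich in B cell genes Hk2 gave +2.45, Pfkl +1.82, Pkm +1.14 and Pdk2 -1.38. Pfkm then rose (+0.71, adjusted p = 0.0058), and Pfkp (-0.46, adjusted p = 0.0459) and Ldhb (-0.42, adjusted p = 0.0484) fell.

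Correlation between members over tumors was read in 5 chosen pairs only, too few to tell whether the members moved together. Of 5 pairs correlated over the 19 tumors, none passed: the largest Pearson correlation was 0.411 (Hk2 with Ldha, permutation p = 0.0804, adjusted p = 0.402, Spearman 0.414 with adjusted p = 0.398), and 0.340 without the 2 tumors farthest from the median. Aldoa with Tpi1 gave -0.16 and Hk2 with Slc2a1 0.081. Within genotypes Hk2 with Ldha gave 0.703 in KO tumors and -0.313 in HT tumors.

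Neighboring pathways were read from other lists, in tumors against thymi by limma, where 11.9% of all genes were higher and 12.8% lower. These lists too were drawn up with earlier results of these data known. Among 17 other hypoxia and HIF targets, 5 rose and 1 fell, with Ddit4 (an mTOR inhibitor) at +1.61, Vegfa (the vascular growth factor) at +1.08, P4ha1 (collagen prolyl hydroxylase) at +0.84 and Higd1a at +0.57. Mxi1, a MYC antagonist, was the one that fell (-1.35, adjusted p = 0.0205), named after its value was seen. The median of the list was +0.37, beside +0.05 over all genes. Its genes that did not pass ran from -0.65 (Bnip3) to +1.25 (P4ha2), with Car9 at +0.15 and Ndrg1 at +0.16. These too were named after their values were seen. Among 16 regulators 4 rose and 2 fell, Myc by +0.87, Epas1 (HIF2 alpha) by +3.19 and the AMPK subunit Prkaa2 by +2.23, with Mlx at -1.06. Hif1a (-0.05, limma adjusted p = 0.891) and Arnt (-0.13, adjusted p = 0.532), named after their values were seen, did not pass. The pentose phosphate list had 2 of 7 higher (Pgd +0.92, Tkt +0.89) and 1 lower (Taldo1 -0.54).

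Of 12 genes of gluconeogenesis and glycogen, 5 rose and 0 fell, with a median of +0.72. Fbp1, a gluconeogenic phosphatase that opposes phosphofructokinase, rose by +5.65 (SE 0.912, limma adjusted p = 5.6e-05). Its SD was 2.77 over tumors and 0.387 over thymi, so tumors differed widely. The glycogen genes Gys1 and Gyg rose by +0.89 and +0.74. Of 9 genes of pyruvate entry into mitochondria 0 rose and 1 fell (Pdhx -0.82), and of 16 genes of the tricarboxylic acid cycle 2 rose (Suclg2 +0.996, Dlst +0.44) and 1 fell (Sdhb -0.66). The medians of these 2 lists were -0.19 and -0.23. Among 13 other glycolytic and sugar transport paralogs 4 rose and 2 fell, with Slc16a6 at +2.57 and Slc2a9 at -1.06.

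Because HIF1 and MYC are textbook regulators of these genes, their binding letters were counted in the 250 bases before each start, from RefSeq promoters of GRCm38.p6. The hypoxia response core was searched as ACGTG or GCGTG on both strands, and the E-box as CACGTG, which contains ACGTG. Entries were matched for 33 of the 34 members, with Slc2a3 as the exception. The hypoxia core was present for 28 of 33 members (84.8%), against 41.5% of 27025 genes, and in 38 of 49 member windows (77.6%), against 38.6% of 32851 windows. It was in 18 of 21 members that did not pass and in 7 of 8 that rose. The E-box was in 6 of 33 members (18.2%), against 6.86% of all genes, in 0 of 8 that rose and in 5 of 21 that did not pass. Windows were not matched for base composition, and a match is a description, not a site. The 3 windows that follow, chosen after the values were seen, are of Hk2 and Slc16a3, which rose, and of Ldha, which did not pass and holds 5 matches. They run 5′ to 3′ on the gene's strand, and capitals mark each match on either strand.
Hk2 (chr6:82774455-82774704, minus strand): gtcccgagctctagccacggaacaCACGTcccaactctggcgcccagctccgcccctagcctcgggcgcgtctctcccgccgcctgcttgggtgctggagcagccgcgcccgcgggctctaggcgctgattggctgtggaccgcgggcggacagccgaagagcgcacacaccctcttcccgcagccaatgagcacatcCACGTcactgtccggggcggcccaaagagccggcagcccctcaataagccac
Slc16a3 (chr11:120948817-120949066, plus strand): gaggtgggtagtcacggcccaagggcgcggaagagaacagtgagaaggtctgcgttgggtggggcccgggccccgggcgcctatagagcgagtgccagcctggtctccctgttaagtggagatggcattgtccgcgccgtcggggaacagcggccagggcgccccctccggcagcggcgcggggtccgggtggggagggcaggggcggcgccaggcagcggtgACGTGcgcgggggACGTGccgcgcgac
Ldha (chr7:46845554-46845803, plus strand, the first of 2 listed windows): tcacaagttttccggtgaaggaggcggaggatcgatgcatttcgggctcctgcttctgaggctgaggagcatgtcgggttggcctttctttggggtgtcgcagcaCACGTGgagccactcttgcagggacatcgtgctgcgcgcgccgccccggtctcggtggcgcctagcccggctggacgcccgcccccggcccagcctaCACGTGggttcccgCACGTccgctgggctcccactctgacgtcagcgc
The Hk2 and Slc16a3 windows hold 2 matches each, and the Ldha window 5, which include both strands of its 2 E-boxes. The differences in signal between tumors and thymi were +2.31 for Hk2, +1.70 for Slc16a3 and +0.17 for Ldha.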

How the data were processed

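RNA signal was measured on 31 arrays in 6 groups. The deposited values were 1 normalized intensity per probe set and array on a linear scale, made by the authors with GCRMA, per the submitters' processing notes (version not given in the sources used here). Every array had the same median of 20.0. The labels name a labelling assay for whole-transcript arrays.

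The table held 45101 probe sets, of which 34957 named 1 gene, 932 several and 9211 none; 1 had no value. Values were analysed as log2(value + 1). Each gene was read by its probe set of highest mean, and genes above the 25th percentile of mean signal were tested. The members and lists were chosen with earlier results of these data known. Named genes were all members and up to 4 called genes of each list, besides those marked as named after their values were seen.

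Fits used limma 3.58.1 in R 4.3.3 with sex as a covariate and Benjamini-Hochberg adjustment over all 13644 genes. Tumors were compared with thymi as the mean of the 3 genotype differences over 31 arrays, genotypes within the 12 thymi and the 19 tumors. Isozyme differences and correlations used two-sided permutation tests with 100000 resamples (SciPy 1.17.1), adjusted within each family, without sex or genotype as a covariate. Of the 19 tumors 17 were female, whereas thymi were balanced by sex. Changes of isozyme differences therefore need not equal the differences of sex-adjusted limma estimates. Of the planned tests, 2 of 10 pairs and 1 of 6 correlations needed a gene not analysed here. Alternatives changed the pseudocount (16), filter, probe set rule, normalization, covariates, weights and arrays. The fit was tested on simulated data. The labels do not state separate animals, so p-values measure the spread between arrays, which may be technical. The number of arrays limits the precision.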

Additional observations from a re-analysis of the deposited data

Results flagged for a closer look

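In 6 of the 186 combinations of a member and a group (3.23%), 1 array lay far from the others of its group by Dixon's criterion, which chance alone meets in about 1 of 20. KO tumor 01 had Slc2a3 at 13.07, with the next at 11.75. WT tumor 01 had Pfkl at 10.27, below the next at 10.97. WT tumor 05 had Gapdh at 13.85, below 14.46. In thymi, HT male 02 had Eno3 at 7.24 (next 7.64), WT female 02 had Pdk3 at 8.98 (next 9.19) and HT male 01 had Pfkfb3 at 9.30 (next 9.15).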

How the results depend on the processing

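In tumors against thymi Hk2, Slc2a1, Slc2a3, Pfkl, Aldoa, Pkm and Pdk2 passed in all 40 alternative settings, Slc16a3 and Tpi1 in 39 and Aldoc in 29. The cause of each change below was not tested. Members lower in that comparison numbered 1, and 3 with the mean of all probe sets or without the 4 tumors rich in B cell genes. They numbered 4 without the sex covariate or with array weights. Members higher gained Pgk1 with the mean of all probe sets, Pfkm without the 4 tumors and Pgam1 with the actin ratio. Eno3 and Pfkfb4 came in without the sex covariate or with array weights, and Hk1 and Hk3 with array weights. Aldoc was lost with a pseudocount of 16, the actin ratio or no male tumors. Slc16a3 was lost with the actin ratio and Tpi1 without the 2 male tumors. Leaving out 1 array gave 8 to 9 higher and 1 to 2 lower, the 2 without WT tumor 03. In HT, members lower numbered 0, and 1 with a pseudocount of 16, without sex, with array weights or without the 4 tumors, and 2 with the mean of all probe sets. In KO they numbered 0, and 1 without sex or without the 4 tumors, and 3 with array weights. Members higher became 8 in WT, 7 in HT and 10 in KO with array weights, with 1 lower in WT, and 6 in HT and 8 in KO without the 4 tumors. All genes called rose too, from 6.87% to 18.4% in WT, 3.53% to 12.7% in HT and 4.94% to 21.8% in KO with array weights, and to 10.1% in HT and 11.8% in KO without the 4 tumors. Leaving out 1 array gave 5 to 6 higher in WT, 2 to 4 in HT and 4 to 6 in KO, and 0 to 1 lower in HT (1 without HT tumor 03 or KO tumor 05) and KO (1 without HT tumor 03, KO tumor 01 or KO tumor 04). In tumors against thymi all genes called ranged from 18.2% with no filter to 45.3% with array weights. Without the 4 tumors (chosen for the slopes after seeing the data), members following the B cell mean went from 5 positive and 7 negative to 0 and 0, the mitosis mean from 9 and 2 to 0 and 0, and the actin ratio from 5 and 3 to 7 and 6, beside 27.3% of all genes.

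Signs turned for members that did not pass: with the mean of all probe sets Hk1 (-0.26), Pfkfb3 (-0.0023) and Gapdh (-0.20); without sex Pgk1 (-0.023); with the actin ratio Eno2 (-0.079) and Pgm2 (+0.16); with array weights Pgk1 (-0.0028). Without the 2 male tumors they were Pfkfb3 (-0.042), Pgk1 (-0.064) and Pdk1 (+0.0016), and without the 4 tumors Pgm2 (+0.018), Tigar (-0.031) and the Hk3 and Hk1 difference (-0.047). Leaving out 1 array gave Pfkfb3 -0.0082 to 0.099 and Pgk1 -0.013 to 0.14, negative without KO tumor 02. With the replicate number as a block (replicate block), 0 members passed in any genotype comparison, as without it. Same-numbered tumors correlated over 0.1 in 3 of 17 pairs. Same-labelled thymi, whose label carries sex, did in 12 of 12 pairs, and in 10 of 12 from group and sex means (mean r 0.123). With 2 thymi per genotype and sex, deviations from such means mirror each other. The 10 of 12 therefore count mirrored pairs again, and the mean for other labels (-0.041) follows from 0.123 by arithmetic. Not every pair passed, so the numbers were not taken as pairs. Array number and the tumors' spread limit what could be detected.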
